A study of Mus musculus with 16 samples.

Results

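CpG-rich promoters of mouse β cells were examined for cytosine methylation in 1 young and 1 old bisulfite library, for the histone mark H3K27me3 and for RNA. A promoter was the stretch from 1000 bases before to 500 bases after the start of the most counted transcript of a gene, on autosomes of the mm9 build. It counted as CpG-rich when at least 60 of its CpGs had 5 or more calls in both libraries. Of 21530 autosomal gene starts with 1 position, 9091 (42.2%) met this rule. The other 8964 promoters with 10 to 59 such CpGs served as the comparison, so that 18055 promoters entered the methylation test. Of the 9091, 2043 shared part of their window with another one, as divergent genes do, and 8062 distinct windows remained when each later overlapping one was left out. At the threshold, the 174 promoters with 59 CpGs had a median methylation of 7.47% in young and 8.03% in old cells, and the 180 with 60 CpGs had 8.13% and 7.36%.

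The β cells were sorted by flow cytometry from islets. Young mice were 4 to 6 weeks old. RNA came from pools of MIP-GFP/Bl6 mice, which carry green fluorescent protein under the mouse insulin promoter, with 3 old libraries labelled 15, 16 and 17 months and 2 young libraries. Chromatin and bisulfite DNA came from C57Bl6 mice, with old pools labelled 16 to 18 months, while the design text gives 18 to 22 months for the old bisulfite pool, so the age of that pool is uncertain. An RNA library pooled 5 to 10 mice and the young bisulfite library 10 mice, and the labels name no treatment. The design text names 3 young RNA replicas, of which 2 were used here, and 2 old H3K27me3 replicas, of which 1 region list was used. Each mark and the methylation were thus read from 1 list or table per age, and H3K27ac from young cells only.

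RNA libraries held 23559908 to 33562822 gene counts in old cells, 6377619 in the shallower and 12892123 in the deeper young library. Over autosomes, the bisulfite tables listed 18171915 CpGs in young and 18848652 in old cells, with a median of 16 and 18 calls. CpG-rich promoters were covered more deeply, with a median of 59.7 calls per CpG in young and 50.1 in old cells, or 5194 and 4371 calls per promoter. Markers of β cells summed to 331864, 338613 and 437202 CPM (gene counts scaled to the size of the library) in the old libraries. In the shallower and deeper young library they summed to 315007 and 256933 CPM. Of the 10 markers, 3 were called higher in old cells (edgeR adjusted p below 0.05) and 0 lower, beside 3.17% and 7.93% of all genes tested. Whether the pools of a group were independent beyond their labels is not given, so p-values measure the spread between these libraries.

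Most CpG dinucleotides of a mammalian genome are methylated, but CpG-rich promoters, known as CpG islands, are usually free of methylation in all tissues, whether or not their gene is transcribed. Silent CpG islands are often covered instead by H3K27me3, the mark laid down by Polycomb repressive complex 2, which is typical of developmental regulators and of genes that a cell type must not express. The well known exceptions are promoters of germline genes, which somatic cells keep methylated, and promoters at imprinted loci, which are methylated on the copy from 1 parent.

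The 8 promoters printed next stand for these classes: the germline genes Dazl and Sycp1, Papolb with the largest methylation difference between the libraries, the imprinted gene Peg3, Slc16a1, Mki67 and Gad1 with H3K27me3 at both ages, and the housekeeping gene Vcp with none. Each line holds the 250 bases before the RefSeq start, from 5′ to 3′ on the strand of the gene, taken from RefSeq in the GRCm38.p6 build, with CpGs methylated at 50% or more in both libraries in capitals. The CpGs were matched to the deposited mm9 positions by their spacing. In Dazl (chr17:50293621-50293870, minus strand) 20 of 20 CpGs reached 50% in both libraries, and in Sycp1 (chr3:102936101-102936350, minus strand) 17 of 17 did. In Papolb (chr5:142530077-142530326, minus strand) 11 of 19 did, and the median CpG stood at 50% in young and 90.9% in old cells. In Peg3 (chr7:6730420-6730669, minus strand) none of 8 did, with a median CpG at 25.4% and 43.2%. No CpG reached 50% in both libraries in Slc16a1 (chr3:104638414-104638663, plus strand, 37 CpGs), Mki67 (chr7:135716380-135716629, minus strand, 24 CpGs, 23 of them with calls), Gad1 (chr2:70561879-70562128, plus strand, 17 CpGs) and Vcp (chr4:43000508-43000757, minus strand, 15 CpGs).
Dazl: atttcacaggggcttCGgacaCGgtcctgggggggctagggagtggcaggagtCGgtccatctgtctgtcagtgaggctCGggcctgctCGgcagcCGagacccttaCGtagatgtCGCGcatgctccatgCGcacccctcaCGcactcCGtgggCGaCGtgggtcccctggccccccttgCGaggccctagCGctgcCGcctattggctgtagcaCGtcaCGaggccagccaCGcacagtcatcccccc
Sycp1: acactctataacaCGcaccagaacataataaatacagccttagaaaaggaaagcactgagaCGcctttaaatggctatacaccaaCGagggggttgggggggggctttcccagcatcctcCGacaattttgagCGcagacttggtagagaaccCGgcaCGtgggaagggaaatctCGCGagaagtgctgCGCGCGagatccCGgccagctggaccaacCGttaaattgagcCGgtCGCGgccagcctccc
Papolb: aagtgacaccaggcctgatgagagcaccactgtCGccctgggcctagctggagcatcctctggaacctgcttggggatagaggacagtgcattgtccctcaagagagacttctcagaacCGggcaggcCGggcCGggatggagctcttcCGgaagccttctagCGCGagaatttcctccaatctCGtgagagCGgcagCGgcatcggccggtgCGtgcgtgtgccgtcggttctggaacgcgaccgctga
Peg3: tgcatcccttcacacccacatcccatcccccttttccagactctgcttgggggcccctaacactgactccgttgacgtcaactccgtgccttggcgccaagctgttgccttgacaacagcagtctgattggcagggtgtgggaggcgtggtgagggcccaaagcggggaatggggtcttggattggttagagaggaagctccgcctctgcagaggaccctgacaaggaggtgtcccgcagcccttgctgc
Slc16a1: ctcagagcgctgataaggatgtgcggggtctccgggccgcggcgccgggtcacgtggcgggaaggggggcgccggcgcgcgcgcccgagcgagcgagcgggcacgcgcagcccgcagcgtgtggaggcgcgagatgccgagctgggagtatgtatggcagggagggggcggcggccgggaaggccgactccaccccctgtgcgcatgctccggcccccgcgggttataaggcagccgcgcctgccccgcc
Mki67: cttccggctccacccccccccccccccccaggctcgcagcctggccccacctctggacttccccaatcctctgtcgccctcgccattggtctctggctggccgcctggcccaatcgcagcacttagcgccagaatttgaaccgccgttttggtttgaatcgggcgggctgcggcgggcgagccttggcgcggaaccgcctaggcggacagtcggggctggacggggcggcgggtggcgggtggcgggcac
Gad1: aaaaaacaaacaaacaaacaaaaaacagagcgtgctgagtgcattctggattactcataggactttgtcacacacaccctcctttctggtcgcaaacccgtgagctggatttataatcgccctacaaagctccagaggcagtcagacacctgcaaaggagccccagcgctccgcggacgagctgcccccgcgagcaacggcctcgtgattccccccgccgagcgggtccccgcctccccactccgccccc
Vcp: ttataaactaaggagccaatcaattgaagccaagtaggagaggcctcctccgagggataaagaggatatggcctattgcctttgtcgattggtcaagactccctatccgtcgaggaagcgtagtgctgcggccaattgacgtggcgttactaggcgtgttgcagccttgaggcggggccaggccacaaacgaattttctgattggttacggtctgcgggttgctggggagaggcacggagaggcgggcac

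Of the CpG-rich promoters, 5270 had exactly 1 RefSeq promoter entry of 300 bases (250 before to 50 after the start), against 22862 over all genes. The letters GGGCGG, which bind the factor Sp1, stood on either strand in 77.7% of these CpG-rich promoters and in 35.2% of all RefSeq promoters. TATAAA was present in 5.03% and 14.8%. CACGTG, an E-box, was present in 10.9% and 7.12%, and in 7 of the 33 promoters methylated at 25% or more in both libraries. GCGGGAA, an E2F-type letter run, stood in 10.6% and 4.60%. These matches describe letters only. CpG-rich promoters were selected by CpG number, and their 300 bases held a median of 26 CpGs, against 7 in all RefSeq promoters. The Sp1, E-box and E2F-type letters each include a CpG, and the remaining run includes none. The differences between these shares therefore cannot be told apart from the selection by CpG number. The set of all RefSeq promoters also includes the CpG-rich ones.

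CpG-rich promoters were nearly free of methylation at both ages. Their median was 5.53% in young and 5.73% in old cells, with the middle 50% of promoters at 3.87 to 8.01% and 4.10 to 7.88%. Below 10% lay 7839 of 9091 promoters (86.2%) in young and 7931 (87.2%) in old cells. At 50% or more lay 30 and 33. The other promoters had medians of 37.6% and 37.2%, and 45.4% and 45.5% of them reached 50%. Over all autosomes the median CpG stood at 94.3% in young and 88.9% in old cells, and the mean CpG at 75.9% and 75.7%. Since few CpG-rich promoters left the lowest classes, the classes above 25% hold 71 promoters in young and 86 in old cells.

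**Figure D1:**
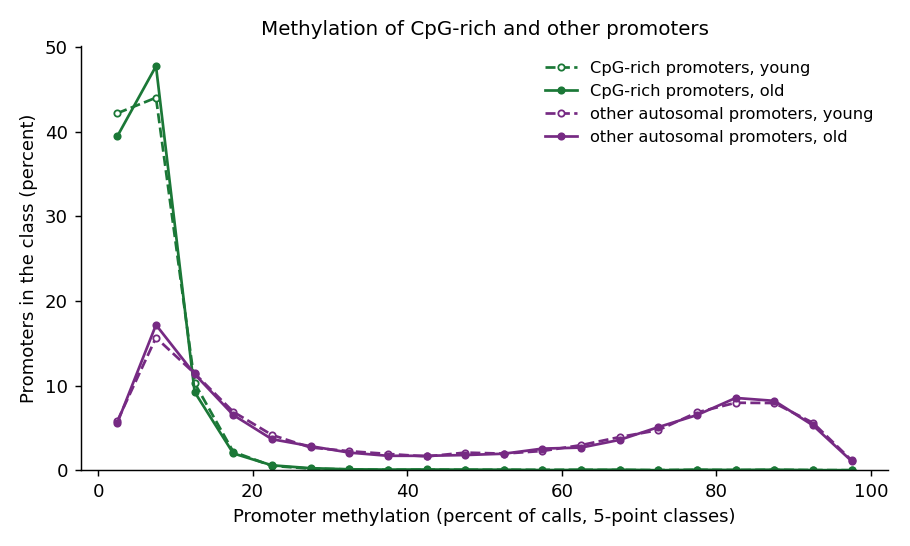
Share of promoters (y axis, percent) in each 5-point class of methylation (x axis, percent of calls) for the 9091 CpG-rich and the 8964 other autosomal promoters, in the young (dashed, open points) and old library (solid). CpG-rich promoters fill the 2 lowest classes at both ages, whereas the others spread up to 100% with a second rise between 75 and 95%.

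Between the libraries, the methylation of CpG-rich promoters was nearly the same. The median of old minus young was 0.187 percentage points, and 8189 promoters (90.1%) differed by less than 5 points. Fisher's exact test on pooled calls (two-sided, adjusted by Benjamini-Hochberg over 18055 promoters) passed for 6338 of them, on a median of 5194 and 4371 calls per promoter. A call therefore also required a difference of at least 10 points. By that rule 21 CpG-rich promoters (0.231%) were higher in the old library and 42 (0.462%) lower, beside 2.83% and 3.64% of all 18055 promoters, and 490 and 615 of the others. This test compares 2 libraries, not ages, and has no replicate check. A promoter below 10% in the young library could not be called lower. That held for 7839 of the 9091 CpG-rich promoters (86.2%) and for 21.5% of the others. The shares of lower calls therefore do not show whether CpG-rich promoters were more stable than the others. With the mean of CpG fractions in place of pooled calls, 13 and 68 were called, with differences of 5 points 457 and 445, and with 20 points 3 and 0.

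Along the window, methylation fell toward the start of transcription. In the first 100 bases of the window the pooled level over all CpG-rich promoters was 20.3% in young and 22.5% in old cells, and in the 100 bases after the start it was 4.45% and 4.62%. In the flank, from 1000 to 501 bases before the start, the median promoter stood at 26.0% in young and 23.0% in old cells, and in the core, within 300 bases of the start, at 4.36% and 4.41%. Pooled calls in the flank were higher in the old library, whereas the median of old minus young over promoters there was -0.558 points, so the flank had no direction that both summaries share.

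By H3K27me3, 5691 CpG-rich promoters (62.6%) overlapped no deposited region, 1730 (19%) overlapped one at both ages, 276 (3.04%) in young cells only and 1394 (15.3%) in old cells only. The old list was also the longer one, with 38007 regions over 649 Mb against 31187 over 452 Mb, and whether a promoter gained the mark with age was not tested. Of the promoters marked in young cells, 86.2% were also marked in old cells, and 55.4% the other way round. CpG-rich promoters carried the mark less often than the other promoters, at 22.1% against 36.3% in young and 34.4% against 51.3% in old cells.

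Promoters with H3K27me3 at both ages had the highest median methylation of the 4 states, still far below that of the genome. Their median was 7.15% in young and 7.46% in old cells, against 5.16% and 5.22% without the mark, 5.74% and 6.15% with the mark in young cells only, and 5.69% and 6.04% in old cells only. Pooled over all calls, promoters marked at both ages stood at 7.74% (Wilson 95% interval 7.72 to 7.75) in young and 8.64% (8.63 to 8.66) in old cells. Promoters without the mark stood at 5.14% (5.14 to 5.15) and 5.33% (5.32 to 5.33). Such intervals, here and for single promoters, cover counting error only. The median of old minus young was 0.06 points without the mark, 0.488 at both ages, 0.445 in young only and 0.306 in old only. As means of CpG fractions these medians were -0.440, -0.039, -0.154 and -0.215, so their direction depends on the averaging. The calls of 10 points or more were 6 higher and 30 lower without the mark, 4 and 5 with it at both ages, 1 and 1 in young only, and 10 and 6 in old only.

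**Figure D2:**
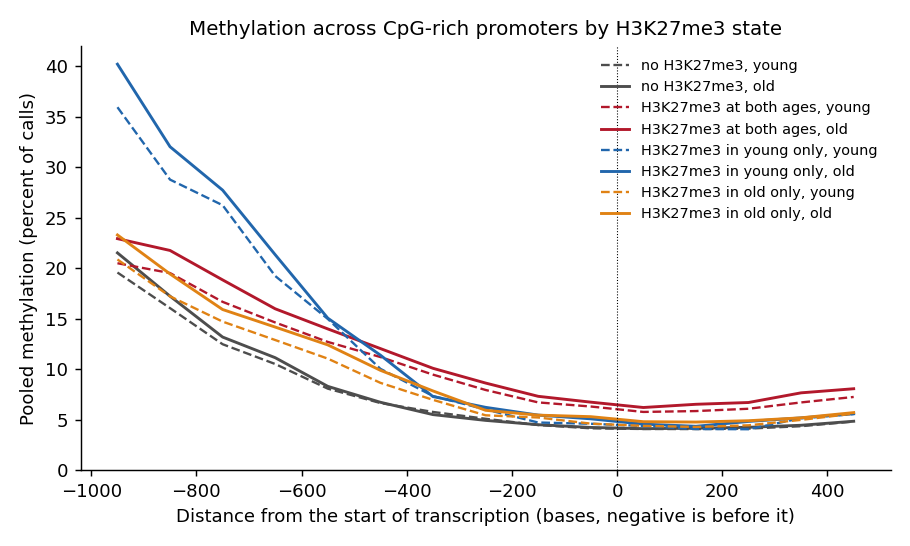
Pooled methylation (y axis, percent of calls) per 100 bases of distance from the start of transcription (x axis) for CpG-rich promoters by H3K27me3 state, in the young (dashed) and old library (solid). Promoters marked at both ages lie above the unmarked ones across the window, and those marked in young cells only reach 35.9% and 40.2% at its far edge, the highest flank of the 4 states.

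The states also differed in the active marks. H3K27ac, a mark of active promoters and enhancers, overlapped 79.3% of CpG-rich promoters without H3K27me3 in young cells, 8.32% of those marked at both ages, 37.3% of those marked in young only and 63.6% of those marked in old only. Over all CpG-rich promoters it was 62.1%, against 19.9% of the others. H3K4me1, which flanks active promoters and marks enhancers, went the other way. It overlapped 74.7% of promoters with H3K27me3 at both ages and 50.2% of those without it in young cells, and 44.9% and 31.3% in old cells. The old H3K4me1 list was shorter, with 36207 peaks against 77291, so these shares are not a measure of change.

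Methylation of 25% or more in both libraries was found at 61 CpG-rich promoters. Of these, 10 belonged to the germline list and 10 to the list of imprinted genes, 2 were microRNA genes and 11 had clone names. H3K27me3 overlapped 45 of the 61 at either age and H3K27ac 8. By state, 16 had no H3K27me3, 25 had it at both ages, 3 in young only and 17 in old only.

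Of the 10 highest promoters 5 belonged to the germline list, namely Dazl, Sycp1, Mael, Fkbp6 and Slc25a31. The 10 highest promoters, by the lower of the levels in both libraries, were those of Dazl, Sycp1, Sycp2, Mael, Stk31, Fkbp6, Hsf5, Slc25a31, Gp1bb and a clone gene, at 78.5 to 93.6% in young and 78.6 to 96.1% in old cells. Dazl, an RNA-binding protein of germ cells (mm9 chr17:50432424-50433924, 84 CpGs), stood at 85.9% (84.5 to 87.1) in young and 89.3% (88.0 to 90.4) in old cells. Its RNA was at 1.17, 1.61 and 0.238 CPM in the old libraries and at 0 in both young ones, and the difference did not pass the test (edgeR adjusted p = 0.129). Sycp1, a protein of the synaptonemal complex that joins chromosomes in meiosis (mm9 chr3:102739523-102741023, 72 CpGs), stood at 86.1% (84.5 to 87.6) and 86.0% (84.5 to 87.4). Its RNA was at 0.527, 0 and 0.286 CPM in old and at 2.08 and 0 in young libraries, so the groups overlapped. Fkbp6, needed for piRNA-guided silencing in testis, stood at 88.6% and 87.0%, and Slc25a31, a mitochondrial carrier of testis, at 84.8% and 82.0%. Gp1bb, a platelet glycoprotein gene and not a germline gene, stood at 83% and 87%.

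Of the 18 germline genes with a CpG-rich promoter, 10 were at 25% or more in both libraries, and the 18 ranged from 5.52 to 88.6% in young and from 3.63 to 89.3% in old cells. Besides the above, Ddx4, an RNA helicase of germ cells, stood at 62.8% and 67.2%, Adad1 at 51.0% and 44.4%, Smc1b, a meiotic cohesin subunit, at 32.6% and 39.9%, Dmc1, a meiotic recombinase, at 32.1% and 34.9%, and Boll, of the Dazl family, at 27.7% and 28.0%. Germline promoters below that included Tdrkh at 5.52% and 3.63% and Dmrt1 at 9.68% and 7.45%. Of the 18 genes 12 passed the filter on low counts, and none was called higher or lower (edgeR). At an unadjusted p below 0.05, 1 was higher and 2 were lower, and DESeq2 called 2 lower.

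Promoters at imprinted loci had a list median of 9.05% in young and 13.2% in old cells. Most of the methylated ones lay in the middle of the range. Of 30 CpG-rich promoters of the list, 10 were at 25% or more in both libraries, and 9 of these lay between 38.9 and 55.1% in young and between 41.9 and 52.0% in old cells. Peg3, a zinc finger gene expressed from the paternal copy (mm9 chr7:6682630-6684130, 63 CpGs), stood at 40.1% (38.0 to 42.4) and 44.5% (42.5 to 46.5), and Usp29, whose window overlaps that of Peg3, at 39.5% and 43.2%. Mest stood at 42.5% (41.1 to 43.9) and 41.9% (40.3 to 43.7), Nnat at 55.1% and 48.8%, Plagl1 at 39.4% and 44.1%, Mcts2 at 38.9% and 46.1%, and Gnas, the stimulatory G protein subunit, at 43.0% and 52.0%. The overlapping windows of Sgce and Peg10 stood at 51.7% and 54.8% in young and at 48.7% and 50.4% in old cells. Nespas, the antisense transcript at the Gnas locus, stood higher, at 74.4% and 81.6%. None of the 30 was called in methylation by the rule of 10 points.

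RNA of the imprinted list was lower in old cells for 7 of 24 tested genes and higher for none, beside 7.93% lower and 3.17% higher of all 15544 genes tested (edgeR adjusted p below 0.05). In the same libraries all 8 stellate and fibroblast markers (summed to 17.9 to 32.6 CPM in old and 551 and 4745 CPM in young libraries), all 8 endothelial and all 9 tested acinar markers were lower, and their part in this was not tested. Mest, an enzyme of the hydrolase family linked to fetal growth, was at 3.77, 4.4 and 5.43 CPM in old and at 27.2 and 40.6 CPM in young libraries. All old libraries lay below both young ones, with a log2 change of -2.90 (SE 0.47, edgeR adjusted p = 0.0125). Nnat, a small membrane protein of secretory cells, was at 6.06, 4.52 and 9.06 CPM against 28.2 and 60.1 CPM, a log2 change of -2.76 (SE 0.50, edgeR adjusted p = 0.0182). Plagl1, Sgce, Dlk1, Cd81 and Gab1 were the others called lower. Dlk1, a Notch-like membrane protein, was high in the shallower young library alone, at 33.7 CPM against 0.796 CPM in the deeper one. Peg3 was at 1666, 1552 and 1959 CPM in old and 1716 and 1758 CPM in young libraries, with a log2 change of -0.01 (SE 0.22, edgeR adjusted p = 0.985). When 1 old library was dropped (the first, second or last in turn), 0, 1 or 0 genes of the list were called lower, and DESeq2 called 12 lower and 1 higher.

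**Figure D3:**
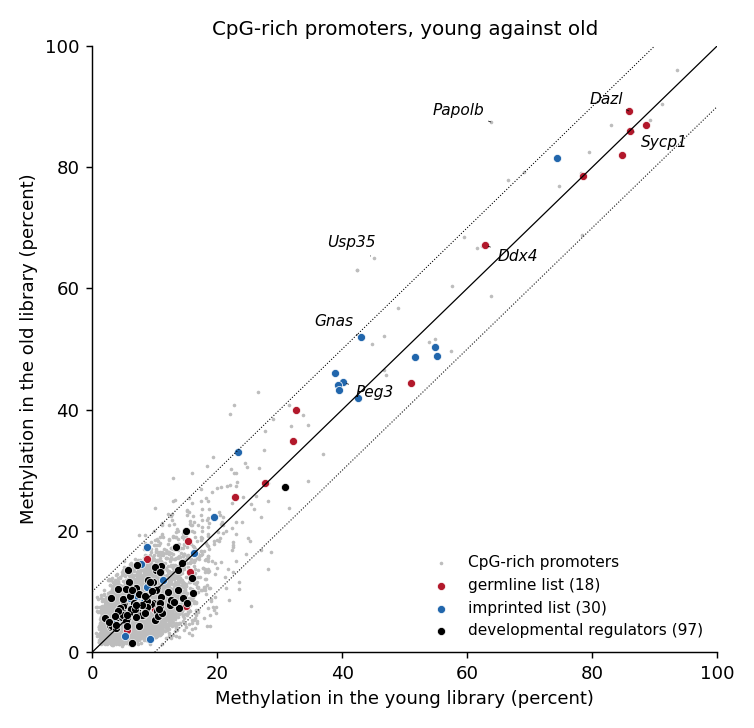
Methylation of each CpG-rich promoter in the young (x axis, percent) and old library (y axis, percent), with promoters of the germline list (red), the imprinted list (blue) and developmental regulators (black); the solid line marks equal levels and the dotted lines a difference of 10 points. Most points crowd below 10% on both axes, the imprinted promoters form a group near 40 to 55%, the highest germline promoters lie near 80 to 90%, and Papolb and Usp35 lie above the upper dotted line.

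Developmental regulators, the textbook targets of Polycomb complexes, were marked and mostly low in methylation. All 97 promoters of this list in the CpG-rich set overlapped H3K27me3 at both ages. Their median methylation was 7.93% in young and 7.76% in old cells, with a range of 2.13 to 30.8% and 1.49 to 27.2%. Barhl1, a homeobox gene of the nervous system, was the only one at 25% or more in both libraries, at 30.8% (28.5 to 33.2) and 27.2% (25.2 to 29.4). H3K27ac overlapped 1 of the 97. RNA of 25 of the 97 passed the filter on low counts, and Pax1, Irx1 and Foxc1, all transcription factors of embryonic patterning, were called lower in old cells, beside 7.93% of all genes and 25.7% of tested CpG-rich genes marked at both ages. Foxc1 was at 0.0753, 0.486 and 0.191 CPM in old and 9.21 and 7.53 CPM in young libraries. Irx1, also found in α cells, was at 0.753, 0.516 and 0.143 CPM in old and 3.56 and 35.3 CPM in young libraries. None of the 3 calls held when any single old library was left out, and DESeq2 called 8 lower.

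The highest methylation went with low RNA and with no H3K27ac. Of the 7313 promoters below 10% in both libraries, 86.2 to 91.3% had RNA at 1 CPM or more across the 5 RNA libraries, and H3K27ac overlapped 67.4%. Of the 597 at 10 to 50% in both, 60.8 to 76.0% had RNA at that level, and H3K27ac overlapped 28.6%. Of the 26 at 50% or more in both, 34.6 to 53.8% did, and none overlapped H3K27ac. H3K27me3 at either age overlapped 32.8%, 64.8% and 73.1% of these classes. Per transcript length, the median gene of the lowest class stood at the 68.5th to 72.0th percentile of its library, and that of the highest class at the 29.0th to 37.1st, over the 4 libraries whose deposited values could be used. Across all 9091 genes, Spearman's rho of methylation with these percentiles was -0.11 and -0.12 in the young libraries. In old libraries 1 and 2 it was -0.22 and -0.21. The genes share libraries, depth and base composition, so these values are given as a description only.

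Some genes had clear RNA and a methylated CpG-rich promoter at the start read here, that of the most counted transcript. Of the 61 promoters at 25% or more, 8 belonged to genes with RNA of at least 5 CPM in every library. Genes may have other starts, and whether the RNA of these genes begins in the window read was not tested. Gnas was at 761.5, 927 and 984 CPM in old and 1350 and 1115 CPM in young libraries. Stx16, a syntaxin of the trans-Golgi network that neighbours the Gnas locus, stood at 34.5% and 37.6% methylation and at 99.6, 82.9 and 69.9 CPM in old and 67.7 and 56.6 CPM in young libraries. Usp35, a ubiquitin protease, and Nrbp2, a pseudokinase, stood at 45% and 59.5% in young and 65.0% and 68.5% in old cells. The promoter of Sfi1, a centrosome protein, stood at 78.2% and 79.1%, but on 1396 calls per CpG in young and 1464 in old cells, beside medians of 59.7 and 50.1, and whether these reads stem from this locus alone was not tested.

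Of the 21 promoters called higher in the old library, Papolb, a poly(A) polymerase of testis (mm9 chr5:143005530-143007030, 72 CpGs), moved most, from 63.8% (61.8 to 65.7) to 87.5% (86.0 to 88.8). Usp35 went from 45% (43.4 to 46.7) to 65.0% (63.4 to 66.6), and Cpxm2, a carboxypeptidase-like gene, from 22.1% (20.6 to 23.6) to 39.3% (37.1 to 41.6). The other 3 of the 6 largest were clone genes, 2 of them with overlapping windows. Of the 42 called lower, those with large differences included Zfp46, a zinc finger gene, from 25.4% (23.6 to 27.3) to 7.64% (6.57 to 8.87), Mllt3, a chromatin reader, from 18.3% to 4.38%, and Lhfp from 19.8% to 6.51%.

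RNA followed these differences in no common direction. Of the 21 promoters higher in the old library, 16 genes were tested, with 1 higher (Ric3) and 0 lower RNA at the adjusted threshold (edgeR). Of the 42 lower, 40 were tested, with 3 higher and 3 lower. These counts lie near the shares among all tested genes with CpG-rich promoters, 3.52% higher and 5.77% lower, so they are no result about these promoters. Those were Atf5, Atp2c1 and Fam73a on the higher side and Cadm1, Ccdc158 and Lhfp on the lower side, and they are named here because of their number. Atf5, a stress-response transcription factor of β cells, stood at 14.7% (13.4 to 16.2) in young and 3.64% (3.10 to 4.27) in old cells. Its RNA was at 365, 354 and 368 CPM in old and 51.7 and 74.8 CPM in young libraries, which did not overlap, a log2 change of 2.52 (SE 0.26, edgeR adjusted p = 0.0044). Lhfp, a tetraspan membrane protein, was at 0.904, 1.43 and 0.477 CPM in old and 33.7 and 20.6 CPM in young libraries, with a log2 change of -4.84 (SE 0.68, edgeR adjusted p = 0.00805).

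RNA differed by H3K27me3 state. Of the 9091 genes, 8384 passed the filter on low counts, and 295 (3.52%) were higher and 484 (5.77%) lower in old cells. Among genes marked at both ages 1199 of 1730 were tested, and 308 (25.7%) were lower and 13 (1.08%) higher. Their median log2 change was -2.67, against -0.05 over all genes tested. A gene could pass the filter through the young libraries alone, where genes of this state were more often detected. The median and the share of lower genes therefore cover members selected in part by their young level. Of the 1199, 36 had no count in the old libraries and 3 had none in the young ones. Among genes without the mark 5585 were tested, and 81 (1.45%) were lower and 244 (4.37%) higher, with a median of 0.27. With RLE factors that split was 114 lower and 171 higher, with a median of 0.14. The mark in young only gave 15 lower and 13 higher of 260 and a median of 0.26, and in old only 80 lower and 25 higher of 1340 and a median of -0.16. With old library 1, 2 or 3 dropped there were 92, 123 or 77 lower calls among genes marked at both ages and 6, 8 or 39 higher calls among unmarked ones. Without the deeper young library the median was -1.95 for genes marked at both ages and 0.11 for those marked in old only.

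**Figure D4:**
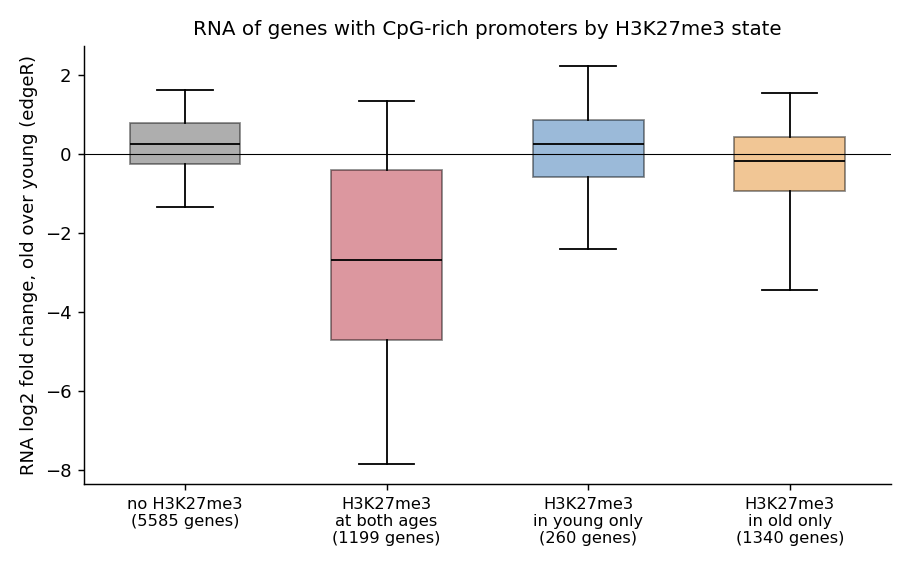
Log2 fold change of RNA, old over young (y axis, edgeR), for tested genes with CpG-rich promoters by H3K27me3 state (x axis); lines mark the medians, boxes the middle 50% and whiskers the 5th to 95th percentile of genes. The box of genes marked at both ages lies below 0, with a median of -2.67, and the other 3 medians lie between -0.16 and 0.27.

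Genes marked at both ages were less often detected than unmarked ones in each of the 5 libraries. At 1 CPM or more stood 35.8, 37.0 and 35.1% of genes marked at both ages in the old libraries, and 66.9 and 64.7% in the shallower and deeper young library. Among unmarked genes the shares were 95.5, 95.2 and 95.3% in old and 93.6 and 95.2% in young. Of the 308 lower genes, 8 had H3K27ac at their promoter in young cells, and their median methylation was 7.00% in young and 7.20% in old cells, beside 6.91% and 7.11% for the 878 genes of that state with no call. Markers of other cell types moved with this group. All 5 markers of δ and PP cells, all 9 tested of acinar cells, all 8 of endothelial cells and all 8 of stellate cells and fibroblasts were lower in old libraries, with 4 of 6 of duct cells, 2 of 7 of immune cells and 1 of 6 of α cells. The summed level of the stellate and fibroblast markers was 17.9 to 32.6 CPM in old and 551 and 4745 CPM in young libraries, that of δ and PP markers 234 to 482 against 3185 and 9667 CPM, and that of acinar markers 93.6 to 135 against 1512 and 2264 CPM, with Amy2a5 at 0 in the old ones. Endothelial markers summed to 47.2 to 72.4 against 446 and 797 CPM, duct markers to 87.4 to 109 against 347 and 267 CPM, immune markers to 22.3 to 34.8 against 128 and 261 CPM, and α-cell markers to 1257 to 2143 against 2148 and 32075 CPM. Markers of β cells went the other way, at 331864 to 437202 against 315007 and 256933 CPM, with 3 of 10 higher and 0 lower. The part of all these markers in the result was not tested, and in bulk RNA fewer cells of a type and less RNA per cell cannot be told apart.

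Among genes marked at both ages, Mki67, a protein of dividing cells (mm9 chr7:142907562-142909062, 105 CpGs), was at 1.92, 1.24 and 2.10 CPM in old and 349 and 307 CPM in young libraries. The groups lay far apart, with a log2 change of -7.55 (SE 0.33, edgeR adjusted p = 0.000189), while its promoter stood at 3.77% (3.39 to 4.2) methylation in young and 7.44% (6.82 to 8.13) in old cells. Pld1, a phospholipase, and Sema5a, a guidance molecule, were the next lowest by adjusted p, with log2 changes of -4.96 and -5.23. Gad1, which makes GABA in β cells, had the smallest adjusted p of the 13 higher genes (mm9 chr2:70399221-70400721, 79 CpGs). It was at 101.4, 95.8 and 112 CPM in old and 16.2 and 21.9 CPM in young libraries, a log2 change of 2.43 (SE 0.30, edgeR adjusted p = 0.00545). Its promoter stood at 8.65% (7.76 to 9.64) in young and 3.24% (2.72 to 3.86) in old cells and carried H3K27ac over nearly the whole window in young cells. Scrt1, a neuroendocrine repressor, was at 32.9, 58.2 and 64.5 CPM against 5.50 and 6.73 CPM, and Trnp1, a nuclear protein, at 18.7, 34.1 and 38.6 CPM against 3.71 and 2.10 CPM.

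With the mark in young cells only, Leprel1, a collagen hydroxylase, and Ppm1e, a phosphatase, were higher in old cells by 3.63 and 2.44 on the log2 scale. Leprel1 was at 24.5, 33.1 and 21.5 CPM in old and 1.34 and 2.82 CPM in young libraries, which did not overlap (SE 0.59, edgeR adjusted p = 0.013). P4ha3, another collagen hydroxylase, was lower, at 0.0377, 0.0911 and 0.143 CPM against 23.0 and 7.24 CPM, as were Pole, the leading-strand DNA polymerase, and Tgfbr3, a co-receptor of TGF-β. With the mark in old cells only, Igf2bp2, a fetal RNA-binding protein, was at 0.151, 0.273 and 0.191 CPM in old and 24.4 and 19.9 CPM in young libraries, a log2 change of -6.70 (SE 0.72, edgeR adjusted p = 0.00465), with 3.96% and 2.62% methylation. Timp2, an inhibitor of matrix proteases, and Cobl, an actin nucleator, were lower by log2 changes of -4.95 and -4.69. Atf5, Negr1, a neuronal adhesion molecule, and Tmem132b were higher in the same state, by 2.52, 2.82 and 1.93 on the log2 scale.

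**Figure D5:**
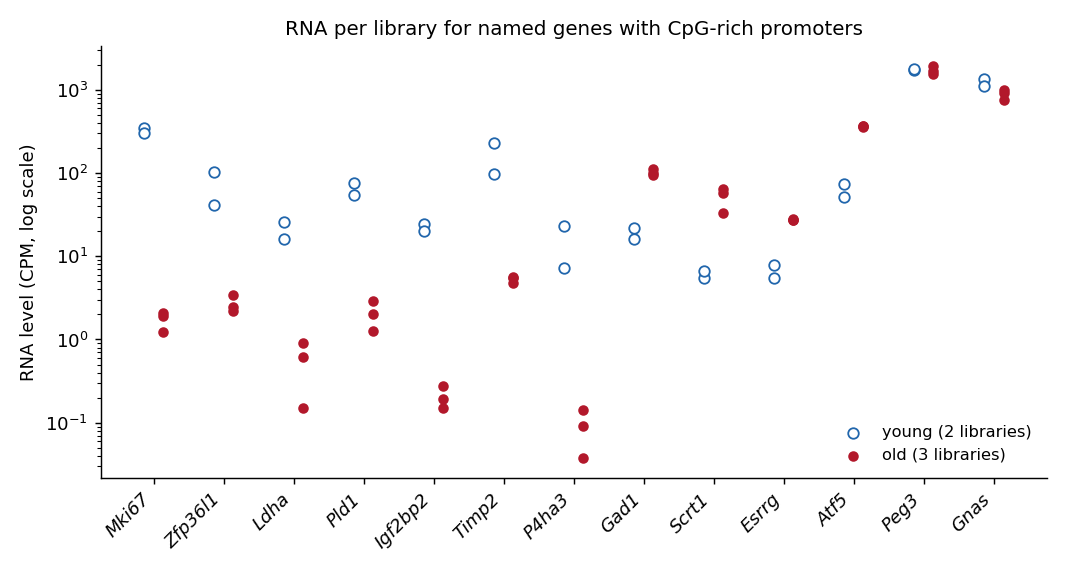
RNA level in CPM (y axis, log scale) in each of the 2 young (open) and 3 old libraries (filled) for 13 genes with CpG-rich promoters (x axis). The young points lie above the old ones from Mki67 to P4ha3, the old points above the young ones from Gad1 to Atf5, and those of Peg3 overlap.

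Disallowed genes, which β cells normally keep low because their products disturb glucose sensing, were nearly all in the marked state: of 16 CpG-rich promoters 14 had H3K27me3 at both ages. Their methylation ranged from 2.94 to 11.3% in young and from 3.78 to 18.9% in old cells, and H3K27ac overlapped 1. RNA of 8 of 15 tested genes was lower in old cells and of none higher, beside 7.93% and 3.17% of all genes. Markers of stellate cells and fibroblasts (551 and 4745 CPM in young, 17.9 to 32.6 CPM in old libraries), endothelial, acinar, δ and PP cells were lower in the same libraries, and their part in this list's difference was not tested. Ldha, lactate dehydrogenase A, was at 0.151, 0.911 and 0.620 CPM in old and 16.0 and 25.9 CPM in young libraries, a log2 change of -5.21 (SE 0.87, edgeR adjusted p = 0.0141). Slc16a1, the monocarboxylate transporter MCT1, had no count in the old libraries and 4.31 and 1.303 CPM in the young ones. Against 3 counts over the old group it was at least 75.3-fold lower (edgeR adjusted p = 0.0457). Slc16a1 thus passed the filter on low counts through the young libraries alone. The count of lower genes in this list therefore covers members selected in part by their young level. Zfp36l1, an RNA decay factor, was at 3.39, 2.19 and 2.43 CPM against 41.6 and 101.8 CPM, and its promoter stood at 11.3% in young and 18.9% in old cells. Pdgfra, also a marker of mesenchymal cells, was at 1.49 and 34.02 CPM in the young libraries and at 0.0377, 0 and 0 CPM in the old ones. Igfbp4, Maf, Ndrg2 and Rest were the other lower genes. Without old library 1, 2 or 3, 4, 5 or 2 of the calls of this list were made.

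Genes of the cell cycle had mostly unmarked promoters, with 31 of 48 free of H3K27me3, 3 marked at both ages, 1 in young only and 13 in old only. Their median methylation was 4.77% in young and 6.14% in old cells, and H3K27ac overlapped 21. RNA of 13 of 48 was lower in old cells and of none higher, beside 7.93% and 3.17% of all genes tested. Top2a, the topoisomerase of dividing cells, was at 1.62, 1.37 and 2.002 CPM in old and 20.3 and 67.0 CPM in young libraries, with an unmarked promoter at 7.40% and 11.2% methylation. Cenpf, a centromere protein, was at 0.565, 1.97 and 1.19 CPM against 27.8 and 52.2 CPM, with the mark in old cells only. E2f8, a repressor of E2F targets marked at both ages, had no count in old libraries and was at least 351-fold lower. It thus passed the filter on low counts through the young libraries alone. Without old library 1, 2 or 3, 5, 5 or 4 of the list were called lower, and DESeq2 called 26. Against the same shares of all genes, among 20 G1 cyclins and growth genes 5 of 17 tested were lower, with 3, 2 or 3 without old library 1, 2 or 3, and none higher. Of 16 cell cycle inhibitors and senescence genes, 3 of 14 tested were lower (7.93% of all genes), namely Igfbp3, Igfbp4 and Igfbp7, which bind insulin-like growth factors and are not kinase inhibitors. With any single old library dropped, no gene of this list was called. Markers of stellate cells and fibroblasts, endothelial, acinar, δ and PP cells were lower in the same old libraries. Their part in the differences of the cell cycle, growth and inhibitor lists was not tested. Members of the growth and inhibitor lists could also pass the filter on low counts through the young libraries alone. Cdkn2a, the locus of p16, was read at 1 start only (mm9 chr4:88940523, minus strand). Whether p16 RNA begins there was not tested. The window of this start had H3K27me3 at both ages, with 4.55% and 5.21% methylation. RNA of the most counted transcript stood at 0.339, 0.0304 and 0.0477 CPM in old and 0.297 and 0 CPM in young libraries. The groups overlapped, and the gene did not pass the filter on low counts.

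β-cell genes with CpG-rich promoters had low methylation, up to 16.7% in young and 13.6% in old cells. Of 21 transcription factor promoters 9 had no H3K27me3, 9 had it at both ages and 3 in old only, with methylation of 2.63 to 16.1% in young and 2.88 to 13.6% in old cells. Nkx6-1, a factor of β-cell identity without the mark and with H3K27ac across its window, stood at 5.21% and 6.62%, and its RNA at 79.9, 85.3 and 113 CPM in old and 143 and 64.6 CPM in young libraries overlapped between the groups (edgeR adjusted p = 0.801). Esrrg, an orphan nuclear receptor of mature β cells marked at both ages, was the only one called higher, at 27.1, 28.4 and 27.2 CPM against 5.50 and 7.89 CPM (log2 change 2.03, SE 0.44, edgeR adjusted p = 0.0287), with methylation of 11.6% in young and 6.73% in old cells. Sox9, a progenitor and duct factor marked at both ages, was the only one called lower. Among 19 tested genes of this list, 1 was thus higher and 1 lower, beside 3.17% and 7.93% of all genes tested. These 2 calls are therefore no result about the list. With old library 1, 2 or 3 dropped, 0, 1 or 1 gene of this list was called lower, and the call of Sox9 held only without old library 2 among these. Of 19 genes of β-cell function, 12 were unmarked and 7 marked in old only, 18 had H3K27ac, and 2 were called higher, beside 3.17% of all genes. These were Gjd2, the gap junction protein between β cells, at 174, 201 and 135 CPM against 60.7 and 37.6 CPM, and Ero1lb, an oxidase of insulin folding, at a log2 change of 1.11, a call that was lost with RLE factors. With old library 1, 2 or 3 dropped, 0, 0 or 1 gene of this list was called higher.

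Housekeeping genes gave the plainest picture of an active CpG-rich promoter. Of 45 promoters 41 had no H3K27me3 and 43 had H3K27ac, and the median methylation was 5.78% in young and 6.16% in old cells. RNA of 4 of 45 was higher in old cells and of none lower, beside 3.17% and 7.93% of all genes tested and 4.37% higher among unmarked CpG-rich promoters. Sdha, a subunit of respiratory complex II, was at 247, 289 and 240 CPM in old and 65.6 and 70.1 CPM in young libraries, a log2 change of 1.93 (SE 0.24, edgeR adjusted p = 0.00547). Tfrc, the transferrin receptor, was at 79.9, 77.3 and 74.7 CPM against 25.1 and 35.1 CPM. With any single old library dropped, 1 gene of the list was called. At an unadjusted p below 0.05, 11 were higher and 0 lower, and DESeq2 called 8 higher.

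The writers, readers and erasers of both systems were themselves mostly low in methylation at their own promoters. Of 16 CpG-rich promoters of the DNA methylation machinery, 11 had no H3K27me3 and 5 had it in old cells only, with a median of 5.24% and 5.803%. Of the 16 genes, all tested, 1 was called higher and 1 lower. All genes tested gave 3.17% and 7.93%, so these calls are no result about the list. Uhrf1, which brings the maintenance methyltransferase to replicated DNA, was lower, at 0.0377, 0.0304 and 0.143 CPM in old and 2.38 and 14.3 CPM in young libraries, and Cxxc4, a CXXC protein, was higher, at 121, 132 and 116 CPM against 70.3 and 52.6 CPM, a call that was lost with RLE factors. Of 21 Polycomb genes, all tested, 13 had no H3K27me3, with Bmi1 of Polycomb repressive complex 1 higher and Phf19 of complex 2 lower. Beside the same shares of all genes, these 2 calls are no result about the list either. Bmi1 was at 68.6, 49.0 and 59.2 CPM in old and 20.5 and 24.2 CPM in young libraries (log2 change 1.40, SE 0.33, edgeR adjusted p = 0.0351). Phf19, marked at both ages, was at 57.8 and 2.32 CPM in young libraries, the shallower first, and was not called without that one. The calls for Uhrf1, Cxxc4, Bmi1 and Phf19 were each lost whenever any single old library was dropped. Of 2 clustered protocadherin promoters, Pcdhac2 was called higher, beside 3.17% of all genes tested, and not so with any single old library dropped. Of the 47 named genes with an RNA call, 21, 24 and 23 were still called without old library 1, 2 and 3, and 44 and 43 without the shallower and the deeper young library. Without the deeper one Pdgfra did not pass the filter on low counts. Mest, Esrrg, Leprel1, Tgfbr3, Pole, Tfrc, Sox9 and Pdgfra were among those lost under more than 1 of these.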

How the data were processed

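RNA, histone marks and CpG methylation were compared in sorted β cells of old and young mice. The authors deposited whole-number read counts per RefSeq transcript, a table described as FPKM, per the labels, which served as a signal of unknown scale for start positions and for ranks within a library (1 of its columns repeats another, so 4 were used), and, per CpG, the methylated fraction and the number of calls as counts. H3K4me1 and H3K27ac peaks carry a HOMER score per the file headers, and the H3K27me3 lists an unlabelled deposited score, which only ranked regions. STAR, HOMER, edgeR, Bowtie 0.12.7, CASAVA 1.8.2 and the mm9 build appear in the submitters' processing notes. No source used here states bisulfite filters, conversion or the strand of counting.

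RNA was tested with edgeR 4.0.16 (R 4.3.3; quasi-likelihood, TMM, filterByExpr, two-sided, Benjamini-Hochberg) on all genes, old over young. CPM is scaled with TMM factors. Methylation is pooled calls over CpGs with 5 or more calls in both libraries. Fractions times calls gave whole numbers within 1.86e-08. H3K27me3 state is any overlap of 1 base. Alternatives included DESeq2 1.42.0, RLE factors, other filters, windows and CpG numbers. Both test scripts were tested on simulated data. Named genes are the 10 most methylated promoters, the 6 largest methylation gains and losses, up to 3 called genes per H3K27me3 state and direction, up to 3 per gene list, a fixed set, and methylated promoters with RNA of 5 CPM or more; other list members are named only in summaries. Members and lists were chosen with earlier results of these data known. Some named results are not reported here.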

Additional observations from a re-analysis of the deposited data

How the results depend on the processing

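With RLE factors the median log2 change without H3K27me3 was 0.14, and with DESeq2 it was 0.14. DESeq2 called 3562 genes, 1114 higher and 2448 lower; with CpG-rich promoters these were 576 higher and 296 lower without H3K27me3, 29 and 520 at both ages, 25 and 24 in young only, and 57 and 205 in old only. Without the filter 823 genes were higher, and by state 440 (none), 20 (both ages), 20 (young only) and 41 (old only), with a median of -3.04 at both ages. With the upper 50% of the H3K27me3 lists 6 genes were higher in the old only state. Leaving out 1 library gave 331 to 5467 called genes, 40 to 2368 higher and 273 to 3099 lower; without H3K27me3 6 to 1250 higher and 12 to 371 lower (median 0.21 to 0.43); at both ages 2 to 57 higher and 77 to 441 lower (median -2.62 to -1.95); in young only 1 to 53 higher and 1 to 29 lower (0.15 to 0.40); in old only 3 to 164 higher and 13 to 194 lower (-0.22 to 0.11). A lone remaining young library is assumed to vary like the old ones. Methylation gains and losses were 13 and 68 as means of CpG fractions, 59 and 109 with 45 CpGs, 7 and 13 with 75 CpGs, 457 and 445 at 5 points, and 3 and 0 at 20 points. Median old levels (none, both ages, young only, old only) were 6.65, 9.54, 8.28 and 7.62% as means of CpG fractions and 4.37, 6.15, 4.70 and 4.84% within 500 bases of the start; with 45 CpGs they were 8.33% (both ages) and 6.93% (young only), and with 75 CpGs 5.16% (young only). At 5 CPM the share detected (median over 5 libraries) was 76.4% in the lowest and 15.4% in the highest methylation class, where libraries ranged from 11.5 to 38.5%. With 500 bases covered, H3K27ac overlapped 72.6% without H3K27me3 and 57.0% in old only. Of the recomputed values 139 stayed within the spread or 1.5 times of the reported one and 101 did not. Of the state medians of old minus young, that without H3K27me3 was -0.05 within 500 bases and -0.02 with 45 CpGs. The cause of these moves was not tested. No paired analysis was possible because the young columns carry no replicate number. With 1 bisulfite library per age, the number of calls limits counting error only.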

Other observations

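Within the core of the promoters, 300 bases either side of the start, fewer CpGs were wholly free of methylated calls in the old library. Over 508699 such CpGs, 33.7% stood at exactly 0 in young and 28.1% in old cells, with a median of 67 and 56 calls. At the other end, 4.89% in young and 3.42% in old cells stood at 20% or more. The mean CpG stood at 5.46% and 5.28%, and the median CpG at 2.70% and 3.23%, so mean and median differed in direction. Among promoters with H3K27me3 at both ages 29.3% and 23.3% of CpGs stood at 0, and without the mark 34.9% and 29.7%. These values come from 1 library per age, and no source used here states the conversion of either library.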
